A study of Mus musculus with 8 samples.

Results

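The 10 genes examined here encode the inflammasome and its products: the sensors Nlrp3, Aim2 and Nlrc4, the adaptor Pycard, the caspases Casp1 and Casp4, the pore-forming protein Gsdmd, the cytokines Il1b and Il18, and Txnip, a regulator that can bind NLRP3. They were taken by symbol from a fixed list and make up 10 of the 55357 genes in the table. All 10 were among the 14514 genes with enough counts to be tested. BMDM were grown with macrophage colony-stimulating factor (M-CSF) from marrow, taken from wild-type mice of strain C57BL/6J. The 4 control cultures received the solvent methanol for 6 h, and the other 4 received So(d18:1), a sphingosine, at 2 μM in methanol for the same 6 h. The labels name no inflammatory stimulus, whereas the study's text places the cells under one. Transcripts of priming genes are given below, and the priming state itself was not tested. The 10 macrophage markers examined were all tested, with Csf1r at 6234 ± 98.2 CPM and Adgre1 at 2213 ± 60.9 CPM (SD, n = 4) in control libraries.

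An inflammasome forms when a sensor protein recognises a microbial or stress signal and recruits, usually through the adaptor ASC, the protease caspase-1. Caspase-1 then cleaves the precursors of IL-1β and IL-18 and opens gasdermin D, which forms pores in the membrane and kills the cell by pyroptosis. In macrophages a first, priming signal raises Nlrp3 and Il1b transcripts, and a second signal assembles the complex at the protein level. Poly(A) RNA reports on the first of these steps and not on assembly, cleavage or secretion.

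Poly(A) RNA was counted on genes, with 20819860 to 25114354 counts in each control library and 17748397 to 26088609 where So(d18:1) was added. Levels are given as CPM, counts scaled to a common library total, after TMM scaling, and comparisons between genes as RPKM, which also divides by gene length. A fold change is So(d18:1) over control from edgeR's quasi-likelihood test, given with its standard error (SE), with p-values adjusted by the Benjamini-Hochberg method over all genes tested. The study describes the samples of each group as biologically independent. Neither it nor the labels say whether these were separate animals or separate cultures, so the p-values measure the spread between these libraries. In bulk RNA, fewer cells of a type and less RNA per cell cannot be told apart.

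None of the 10 inflammasome genes passed an adjusted p under 0.05 by edgeR's quasi-likelihood test, whereas 8.94% of all tested genes did. At an unadjusted p under 0.05, 2 of the 10 genes passed (Txnip and Casp1), against a background of 23.4%. DESeq2's Wald test called 1 of them, Txnip, against 10.3% of all genes, and limma-voom called 0, against 8.47%. The CPM ranges of the groups were separate for 1 gene, Txnip, against 15.0% of all tested genes. By the threshold in the study's methods, an unadjusted p under 0.05 with a fold change of at least 1.5, 0 of the 10 passed, against 3.89% of all genes. The median log2 fold change of the 10 genes was 0.08, with 8 higher and 2 lower, and that of all tested genes was 0.00 (0.0036), with 7387 higher and 7127 lower.

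The precision bounded how far these transcripts could have moved. The 95% intervals of the fold changes ran from 0.88-fold at the lower bound for Nlrp3 to 1.40-fold at the upper bound for Txnip, so that each of the 10 intervals lay within a 1.5-fold change in either direction. Those of 8 genes included no change, and those of Casp1 and Txnip did not. The median width of an interval was 0.27 on the log2 scale. Among the 1298 genes that were called, 52.4% had an absolute log2 fold change above that of every one of the 10.

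**Figure D1:**
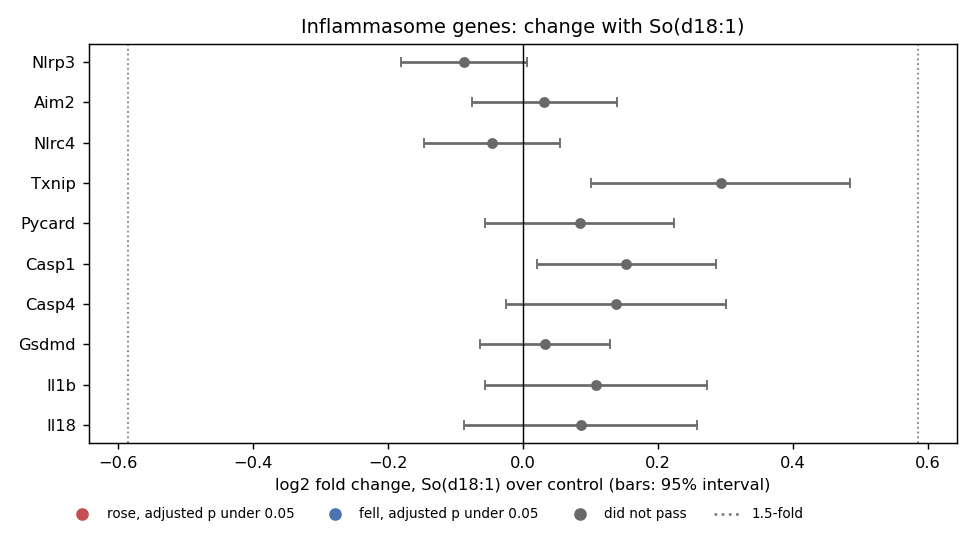
Log2 fold change of the 10 inflammasome genes, So(d18:1) over control, with its 95% interval from edgeR's quasi-likelihood fit (4 libraries per group). The intervals of Casp1 and Txnip lie above 0, those of the other 8 genes cross it, and no interval reaches a 1.5-fold change in either direction.

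Nlrp3 encodes the sensor of membrane and mitochondrial stress, and its transcript is the one most often used as a sign of priming. The gene lies on chromosome 11 from 59541568 to 59566956 (GRCm38, plus strand). The control libraries held 179.6, 178.8, 169.6 and 176.0 CPM of Nlrp3, and the So(d18:1) libraries 174.1, 156.9, 160.3 and 171.4 CPM. The ranges overlapped, because So(d18:1) replicates 1 and 4 lay above control replicate 3, while replicates 2 and 3 lay below every control library. The log2 fold change was -0.09 (SE 0.045, 95% interval -0.18 to 0.01, adjusted p = 0.243, edgeR). Of the 10 genes Nlrp3 had the tightest control libraries, with a coefficient of variation of 2.58%. Nek7, the kinase that binds NLRP3 and is needed for its assembly, averaged 153.7 ± 3.23 CPM with vehicle and 153.4 ± 2.60 CPM with So(d18:1) (SD, n = 4 each, adjusted p = 0.981, edgeR).

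Aim2, the sensor of cytosolic DNA, lies on chromosome 1 from 173350879 to 173466040. It was found at 64.5, 64.8, 57.6 and 63.1 CPM in control libraries and 64.3, 65.2, 65.6 and 60.5 CPM in So(d18:1) libraries. Apart from control replicate 3, which was the lowest, the values of both groups mixed. The log2 fold change of 0.03 (SE 0.052, 95% interval -0.08 to 0.14, adjusted p = 0.771, edgeR) rested on control replicate 3 for its sign and was -0.01 without it.

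Nlrc4, which assembles with NAIP proteins that bind flagellin and secretion system proteins, lies on chromosome 17 from 74425438 to 74459142. It was at 62.3, 64.8, 59.1 and 63.0 CPM in control libraries and at 58.5, 61.6, 61.5 and 59.6 CPM in So(d18:1) libraries. The groups overlapped over most of their range, and the log2 fold change was -0.05 (SE 0.048, 95% interval -0.15 to 0.05, adjusted p = 0.616, edgeR). Naip5, a flagellin receptor, averaged 144.7 ± 9.81 CPM with vehicle and 136.6 ± 9.58 CPM with So(d18:1) (SD, n = 4 each, adjusted p = 0.395, edgeR). Of the 50-base words of its transcripts 36.9% also occur in other Naip genes, so its count is uncertain.

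Pycard encodes ASC, the adaptor that joins sensors to caspase-1, and lies on chromosome 7 from 127989708 to 127993867. Control libraries held 34.7, 35.6, 31.4 and 30.7 CPM, and So(d18:1) libraries 36.3, 32.6, 33.3 and 37.9 CPM. So(d18:1) replicates 1 and 4 were above every control library and the other two lay within the control range. This was a log2 fold change of 0.08 (SE 0.067, 95% interval -0.06 to 0.22, adjusted p = 0.495, edgeR). An exon overlaps Gm45205 on the other strand, which received 0 to 2 counts per library.

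Casp1 encodes the protease that matures IL-1β and IL-18 and lies on chromosome 9 from 5298517 to 5307265. It was found at 78.3, 85.3, 68.2 and 71.3 CPM in control libraries and 80.8, 90.6, 84.7 and 81.0 CPM in So(d18:1) libraries. Only control replicate 2 reached into the So(d18:1) range, and it lay above 3 of the 4 So(d18:1) libraries. The means were 75.8 ± 7.64 CPM and 84.3 ± 4.59 CPM (SD, n = 4 each), for a log2 fold change of 0.15 (SE 0.063, 95% interval 0.02 to 0.29, adjusted p = 0.146, edgeR). The difference did not pass a two-sided exact permutation test of the CPM (p = 0.143). Without control replicate 2 the log2 fold change was 0.22 with an adjusted p of 0.0192 (edgeR), and the fit with the replicate number as a block gave 0.0461 (edgeR).

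Casp4, the mouse caspase-11 that binds intracellular lipopolysaccharide and cleaves gasdermin D without caspase-1, lies close to Casp1 on chromosome 9, from 5308828 to 5336783. It had 18.8, 22.4, 21.2 and 17.9 CPM in control libraries and 22.7, 20.9, 21.9 and 22.8 CPM in So(d18:1) libraries. Control replicates 1 and 4 were below every So(d18:1) library and the other two lay inside their range. Its log2 fold change was 0.14 (SE 0.078, 95% interval -0.03 to 0.30, adjusted p = 0.305, edgeR).

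Gsdmd, the pore-forming substrate of both caspases, lies on chromosome 15 from 75862327 to 75867408. It was found at 137.7, 134.3, 145.6 and 143.0 CPM in control libraries and 151.8, 138.7, 146.8 and 136.6 CPM in So(d18:1) libraries. So(d18:1) replicates 1 and 3 lay above every control library, and replicates 2 and 4 lay within the control range. The change on the log2 scale was 0.03 (SE 0.046, 95% interval -0.06 to 0.13, adjusted p = 0.725, edgeR).

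Il1b, which encodes the precursor of IL-1β and is strongly raised by priming, lies on chromosome 2 from 129364570 to 129371139. Control libraries held 21.8, 26.4, 22.8 and 20.1 CPM, and So(d18:1) libraries 26.4, 23.7, 24.6 and 23.7 CPM. Control replicate 2 was level with the highest So(d18:1) library, and the other control libraries were below every So(d18:1) library. The log2 fold change was 0.11 (SE 0.079, 95% interval -0.06 to 0.27, adjusted p = 0.450, edgeR). Il1bos, on the other strand, had at most 10 counts in a library, against 454 to 662 for Il1b.

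Il18 encodes the precursor of IL-18, which macrophages hold without priming, and lies on chromosome 9 from 50554827 to 50581840. It had 19.0, 20.2, 17.1 and 15.9 CPM in control libraries and 18.6, 18.0, 20.0 and 20.0 CPM in So(d18:1) libraries. The So(d18:1) values fell inside the control range. This was a log2 fold change of 0.09 (SE 0.083, 95% interval -0.09 to 0.26, adjusted p = 0.582, edgeR).

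**Figure D2:**
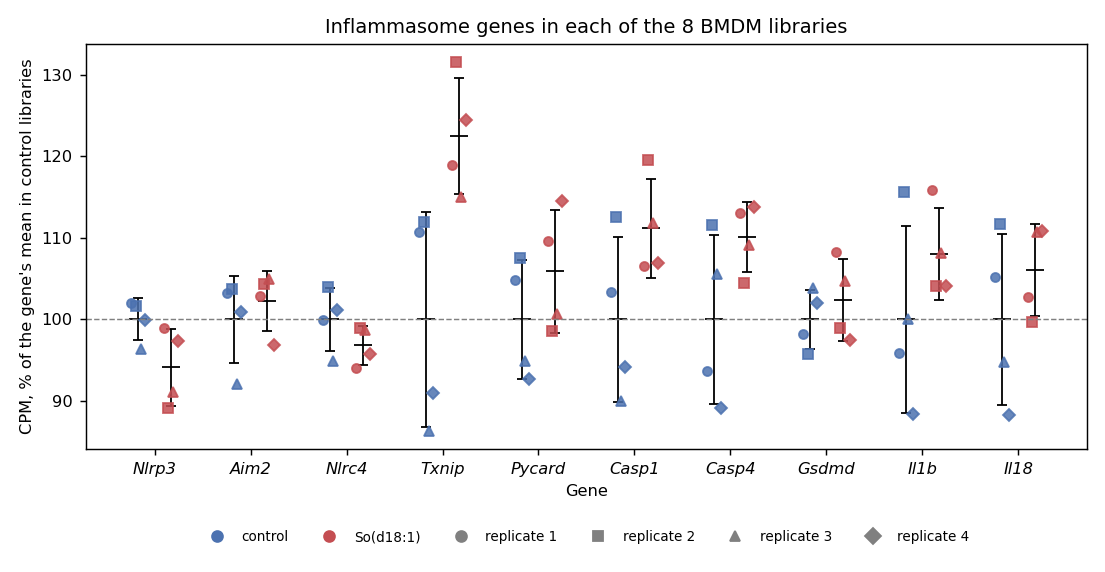
CPM of each inflammasome gene in each of the 8 libraries, as a percent of that gene's mean in the 4 control libraries (dashed line at 100%), with shapes for replicates and black bars for the mean ± SD. Control libraries span 86.4% to 115.6% and So(d18:1) libraries 89.1% to 131.5%, and Txnip is the only one of the 10 genes whose groups do not overlap.

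Txnip encodes the thioredoxin-interacting protein, an arrestin that restrains glucose uptake, binds thioredoxin and can bind NLRP3 under oxidative stress. It lies on chromosome 3 from 96557957 to 96561883 and was the most counted of the 10 genes, with 20745 to 32475 counts per library. Control libraries held 1121, 1134, 874.5 and 921.4 CPM of Txnip, and So(d18:1) libraries 1205, 1332, 1165 and 1260.2 CPM. Every So(d18:1) library lay above every control library, and control replicates 3 and 4 were well below the other control libraries. This split was not particular to Txnip. Over the tested genes, chi-square per gene was 2.76 between control replicates 1 and 2 and 3.78 between 3 and 4. Across these pairs it was 5.75 to 12.2. Of the 10 members, 7, 9, 3 and 4 lay above their control mean in control replicates 1 to 4. The reported fit took no account of the split, and its cause was not tested. The means were 1013 ± 134 CPM and 1240.4 ± 72.4 CPM (SD, n = 4 each), a 1.23-fold difference with a 95% interval of 1.07 to 1.40. The log2 fold change of 0.29 (SE 0.086) had an unadjusted p of 0.00675 and an adjusted p of 0.0653 (edgeR). The largest unadjusted p among the called genes of this fit was 0.00444. The two-sided exact permutation test gave p = 0.0286, the smallest it can give with 4 against 4. Txnip passed without control replicate 1 (log2 fold change 0.35, adjusted p = 0.0219, edgeR) and without control replicate 2 (0.35, adjusted p = 0.0184, edgeR). With So(d18:1) replicate 4 left out it had an adjusted p of 0.209 (edgeR), and the replicate number as a block gave 0.000357 (edgeR). Its transcripts share 15.7% of their 50-base words with Gm15441, which overlaps it on the other strand and had at most 0.116% of its count.

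The windows from 250 bases before to 50 bases after the start sites of Txnip and Casp1 are shown because these are the 2 genes with an unadjusted p under 0.05. Txnip is a known target of the factors MondoA and ChREBP, which bind paired E-box-like sequences named carbohydrate response elements. The capitals mark CACGAG in Txnip, on the strand shown and 85 and 74 bases before the start site at their first base, and the E-box CACGTG in Casp1, which starts 137 bases before it.
Txnip promoter (RefSeq, GRCm38.p6, chr3:96557707-96558006, plus strand): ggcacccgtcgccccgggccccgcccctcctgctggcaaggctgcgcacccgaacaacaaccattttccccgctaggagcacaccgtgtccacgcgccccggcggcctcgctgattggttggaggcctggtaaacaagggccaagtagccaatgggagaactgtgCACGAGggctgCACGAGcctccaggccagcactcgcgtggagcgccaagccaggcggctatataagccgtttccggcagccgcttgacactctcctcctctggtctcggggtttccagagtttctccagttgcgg
Casp1 promoter (RefSeq, GRCm38.p6, chr9:5298267-5298566, plus strand): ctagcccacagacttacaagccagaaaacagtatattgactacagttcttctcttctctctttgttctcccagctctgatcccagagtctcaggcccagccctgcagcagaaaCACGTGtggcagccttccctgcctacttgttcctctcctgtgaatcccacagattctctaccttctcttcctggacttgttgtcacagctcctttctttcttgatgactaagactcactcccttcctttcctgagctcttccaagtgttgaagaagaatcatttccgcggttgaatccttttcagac
On either strand, CACGAG occurs in 6.47% of the 32851 promoter windows, and in those of Txnip and Nlrp3 among the 9 inflammasome genes with a window. The paired form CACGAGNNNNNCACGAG, in which each N is any base, was found in 1 of the 32851 windows, that of Txnip. It has the letters and spacing of the Txnip window itself, so this match was given in advance and its rarity is no separate result. The window of Arrdc4, an arrestin described below, held CACGTG but neither CACGAG nor the pair. CACGTG occurs in 7.15% of all windows and, of the 9 genes, in Casp1 alone. Of the 2 forms of the hypoxia core, ACGTG, which also lies within CACGTG, occurs in 19.6% of all windows and in those of Casp1 and Nlrp3, and GCGTG occurs in 32.4% of all windows and, of the 9 genes, in Txnip alone. The searches were run after the fold changes were known. These matches describe the letters of the windows and no binding.

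The 3 tested genes whose pattern over the 8 libraries was nearest to that of Txnip were Wdr19, Dhx40 and Tmem154, with root mean square differences of 0.030, 0.032 and 0.045 in centred log2 CPM. Of these, Dhx40 (log2 fold change 0.33, adjusted p = 0.0163, edgeR) and Tmem154 (0.36, adjusted p = 0.0198, edgeR) rose, and Wdr19 was at 0.25 (adjusted p = 0.0787, edgeR). They were picked by likeness, so their direction is no separate result.

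Per gene length the 10 transcripts covered a wide range, and Txnip led in both groups. In control libraries Txnip was at 324 ± 42.8 RPKM, Gsdmd at 59.0 ± 2.15 and Nlrp3 at 43.4 ± 1.12 RPKM (SD, n = 4). Casp1 followed at 24.2 ± 2.44 RPKM, Aim2 at 17.9 ± 0.960 and Il18 at 17.5 ± 1.84 RPKM. Nlrc4 was at 13.0 ± 0.494 RPKM, Il1b at 11.9 ± 1.37, Pycard at 8.71 ± 0.636 and Casp4 at 5.40 ± 0.562 RPKM. The ranges of neighbours in this order overlapped for Aim2 with Il18 and for Nlrc4 with Il1b, and those of the other neighbours did not. In So(d18:1) libraries these same pairs changed places, with Il18 at 18.6 RPKM above Aim2 at 18.3 and Il1b at 12.9 above Nlrc4 at 12.5, and their ranges again overlapped. In each group the adaptor Pycard was therefore lower per deposited gene length than each of the 3 sensors. That length is 3800 bases for Pycard, a gene running from 127989708 to 127993867, so it takes in most of the locus. Where a deposited length exceeds that of the transcript, RPKM is too low, so the place of Pycard in this order is uncertain.

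**Figure D3:**
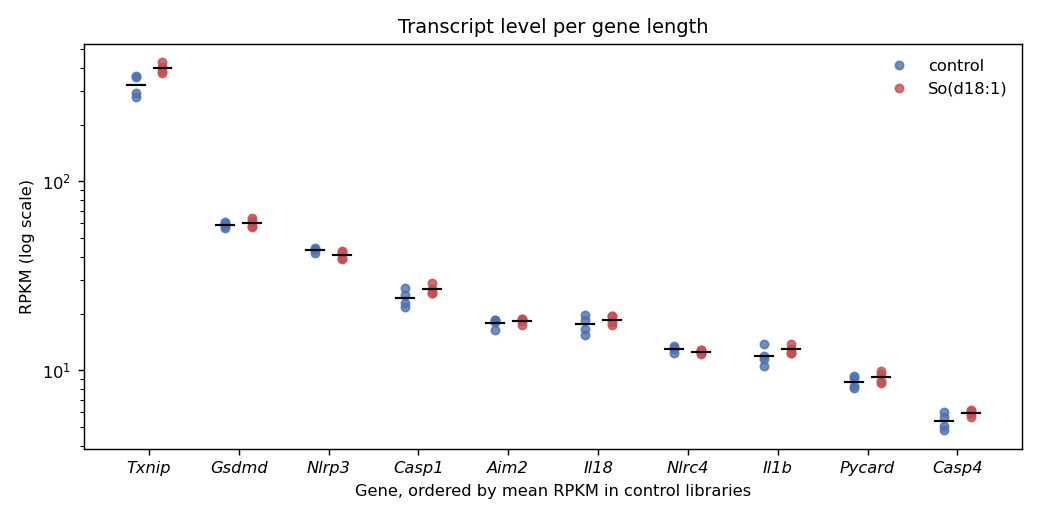
RPKM of the 10 inflammasome genes on a log scale, ordered by their mean in control libraries, with 1 point per library and a black line at each mean. Txnip lies far above the rest at 324 RPKM and Casp4 is lowest at 5.40 RPKM, and the points of Aim2 and Il18 and of Nlrc4 and Il1b overlap.

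The genes around these 10 were described from 6 lists, which held 143 genes, of which 127 were tested. Of these, 12 rose and 6 fell, or 14.2% in all, where the shares among all tested genes were 3.87% rising and 5.07% falling. The lists were chosen with earlier results of these data known, so these shares are no test of an excess. These 18 called genes had groups that did not overlap, with the exception of Arrdc3. Separate groups partly follow from a small p, and 15.0% of all tested genes had them. In the 6 lists, in the order below, 2 of 21, 8 of 33, 5 of 18, 3 of 17, 3 of 15 and 5 of 23 tested genes had them. The lists follow in the order of the pathway.

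**Figure D4:**
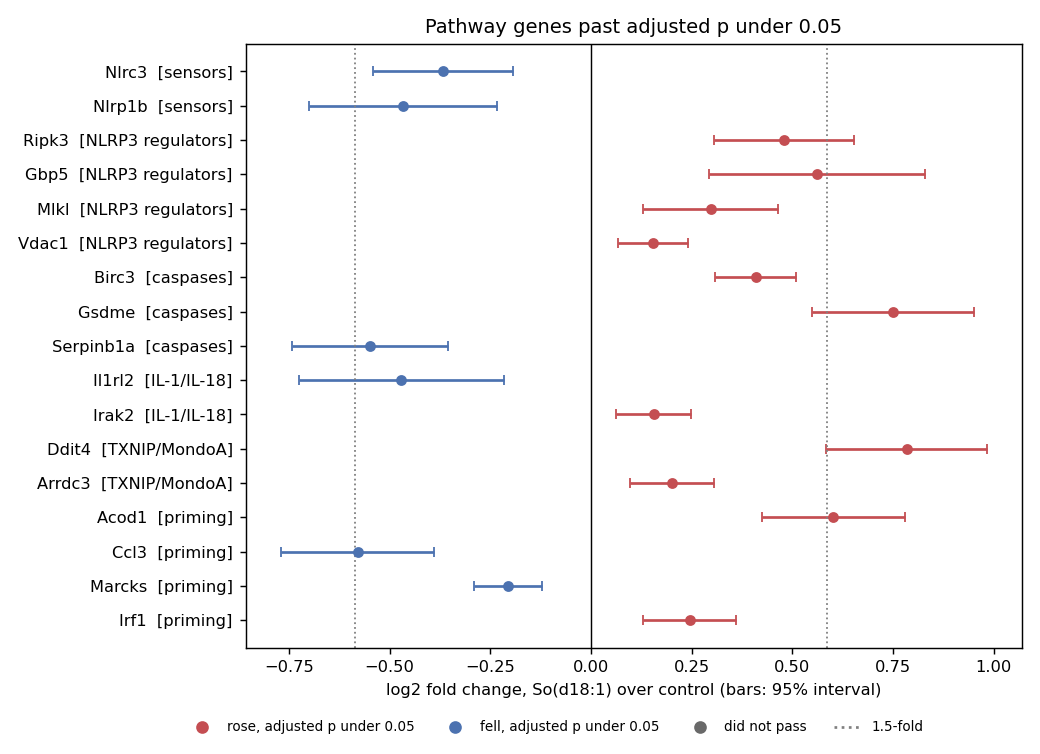
Log2 fold change, So(d18:1) over control, with its 95% interval, of 17 of the called genes from the 6 lists around the inflammasome. Gsdme (0.75) and Acod1 (0.60) are among the largest rises, and Ccl3 (-0.58) and Serpinb1a (-0.55) are the largest falls.

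Among other sensors and related genes, 21 were tested, 0 rose and 2 fell. Nlrp1b, the mouse sensor that anthrax lethal factor cleaves, was at 157.7, 172.2, 147.5 and 148.0 CPM in control libraries and at 119.7, 110.8, 130.8 and 92.3 CPM in So(d18:1) libraries. The groups were separate, and the log2 fold change was -0.47 (SE 0.10, adjusted p = 0.0259, edgeR). Nlrp1b missed the threshold in 5 of the 8 fits with 1 library left out, those without any one of the control libraries or without So(d18:1) replicate 2, with adjusted p up to 0.0659 (edgeR). Its direction was the same in each of these fits. Nlrc3, described as a brake on inflammatory signalling, fell from 21.2 ± 1.65 to 16.5 ± 1.53 CPM (SD, n = 4 each, log2 fold change -0.37, SE 0.083, adjusted p = 0.00721, edgeR). The list's median log2 fold change was 0.00, with 11 genes higher and 10 lower.

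Of the activators and regulators of NLRP3, 33 were tested, 4 rose and 0 fell. Ripk3, the kinase of necroptosis that can also drive NLRP3 activation, had 20.6, 20.1, 17.4 and 19.3 CPM in control libraries and 23.3, 31.0, 25.9 and 27.3 CPM in So(d18:1) libraries. This was a log2 fold change of 0.48 (SE 0.083, adjusted p = 0.00072, edgeR). Its substrate Mlkl, which permeabilises the membrane in necroptosis, rose from 22.4 ± 2.80 to 27.5 ± 1.12 CPM (SD, n = 4 each, log2 fold change 0.30, adjusted p = 0.0232, edgeR). Both genes of this pair were thus above every control library in each So(d18:1) library, although Mlkl missed the threshold without control replicate 3 or 4 and without So(d18:1) replicate 1 or 2 (adjusted p up to 0.0920, edgeR). Gbp5, an interferon-induced GTPase reported to promote NLRP3 assembly, had 31.4, 30.3, 22.9 and 22.7 CPM in control libraries and 43.7, 36.8, 42.7 and 35.3 CPM in So(d18:1) libraries (log2 fold change 0.56, SE 0.12, adjusted p = 0.0168, edgeR). Vdac1, the mitochondrial outer membrane channel, rose from 137.7 ± 1.28 to 153.2 ± 5.53 CPM (SD, n = 4 each, log2 fold change 0.15, adjusted p = 0.0235, edgeR) and missed the threshold without control replicate 1 or 4 and without So(d18:1) replicate 2 or 4 (adjusted p up to 0.0713, edgeR). The list's median log2 fold change was 0.00, with 18 genes higher and 15 lower.

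Among the other caspases, gasdermins and their regulators, 18 were tested, 3 rose and 1 fell. Gsdme, a pore-forming gasdermin related to Gsdmd, was at 7.99, 8.04, 9.86 and 9.53 CPM in control libraries and at 14.1, 14.9, 14.6 and 16.0 CPM in So(d18:1) libraries, with a log2 fold change of 0.75 (SE 0.097, adjusted p = 2.5e-05, edgeR). The groups were well separated, whereas the log2 fold change of Gsdmd, the substrate of caspase-1 and caspase-11, was 0.03 (adjusted p = 0.725, edgeR). The difference between these fold changes was not tested. Birc3, an inhibitor of apoptosis induced by NF-κB, rose from 185.7 ± 13.1 to 246 ± 5.55 CPM (SD, n = 4 each, log2 fold change 0.41, adjusted p = 8.4e-06, edgeR). Serpinb1a, an inhibitor of neutrophil serine proteases that also restrains inflammatory caspases, fell from 17.7 ± 2.07 to 12.1 ± 0.771 CPM (SD, n = 4 each, log2 fold change -0.55, adjusted p = 0.000558, edgeR). Casp8 averaged 185.1 ± 5.33 CPM with vehicle and 175.1 ± 7.74 CPM with So(d18:1) (SD, n = 4 each, adjusted p = 0.288, edgeR). Gsdme, Birc3 and Serpinb1a kept their calls in all fits tried. The list's median log2 fold change was 0.05, with 12 genes higher and 6 lower, and Gsdma and Gsdmc had 0 counts in all libraries.

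In the IL-1 and IL-18 system 17 genes were tested, 1 rose and 1 fell. Irak2, a kinase downstream of IL-1 and Toll-like receptors, rose from 99.5 ± 3.47 to 110.9 ± 3.80 CPM (SD, n = 4 each, log2 fold change 0.16, adjusted p = 0.0332, edgeR). Il1rl2, the IL-36 receptor, fell from 6.08 ± 0.464 to 4.39 ± 0.114 CPM (SD, n = 4 each, log2 fold change -0.47, adjusted p = 0.0186, edgeR). Irak2 missed the threshold without control replicate 1 or 2 and without So(d18:1) replicate 1, 3 or 4 (adjusted p up to 0.0817, edgeR). Il1rl2 did so without control replicate 4 or So(d18:1) replicate 2 (adjusted p up to 0.0736, edgeR). The list's median log2 fold change was 0.01, with 9 genes higher and 8 lower. Il1a had few reads, with 17 to 54 counts per library (log2 fold change -0.63, adjusted p = 0.155, edgeR). It passed the study's threshold, with an unadjusted p of 0.0286 (edgeR), and its log2 fold change was -0.37 without control replicate 3.

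Each of the 2 cytokines of the inflammasome has a secreted antagonist, and neither antagonist passed. Il1rn, the IL-1 receptor antagonist, was at 17.2, 17.8, 26.7 and 19.3 CPM in control libraries and at 18.4, 13.7, 17.5 and 15.0 CPM in So(d18:1) libraries (log2 fold change -0.33, SE 0.14, adjusted p = 0.192, edgeR). Control replicate 3 stood highest, and without it the log2 fold change was -0.17 (adjusted p = 0.353, edgeR). Il18bp, the IL-18 binding protein, was at 34.7, 33.4, 43.2 and 42.7 CPM in control libraries and at 31.7, 25.7, 34.2 and 31.5 CPM in So(d18:1) libraries (log2 fold change -0.33, SE 0.10, adjusted p = 0.0721, edgeR). So(d18:1) replicate 3 lay above control replicate 2, so the groups overlapped. Il18bp passed with the replicate number as a block (adjusted p = 0.00125, edgeR), with no filter on low counts (7.5e-05, edgeR), with counts thinned to the smallest library (0.0260, edgeR), without control replicate 2 (0.0180, edgeR) and by DESeq2's Wald test (0.0154). Il1rn passed with the block (0.0270, edgeR) and with no filter (0.00405, edgeR). Neither passed in the other fits tried. An exon of Il18bp overlaps Numa1 on the other strand, which had at least 918% of its count, so the count of Il18bp is uncertain.

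The ratio of each cytokine transcript to its antagonist was taken within a library from RPKM, a comparison chosen after the values had been seen. Il1b over Il1rn was 3.69, 4.30, 2.48 and 3.03 in control libraries and 4.17, 5.00, 4.09 and 4.59 in So(d18:1) libraries. Control replicate 2 overlapped the So(d18:1) range, and the log2 difference of 0.43 did not pass (two-sided exact permutation test, p = 0.0857, and 0.0857 adjusted over both ratios). Il18 over Il18bp was 1.61, 1.78, 1.16 and 1.09 in control libraries and 1.72, 2.06, 1.72 and 1.87 in So(d18:1) libraries. Here too only control replicate 2 overlapped, with a log2 difference of 0.41 (two-sided exact permutation test, p = 0.0857, adjusted 0.0857). The log2 differences ranged from 0.29 to 0.56 and from 0.30 to 0.53 with each library left out in turn, and both were largest without control replicate 2.

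**Figure D5:**
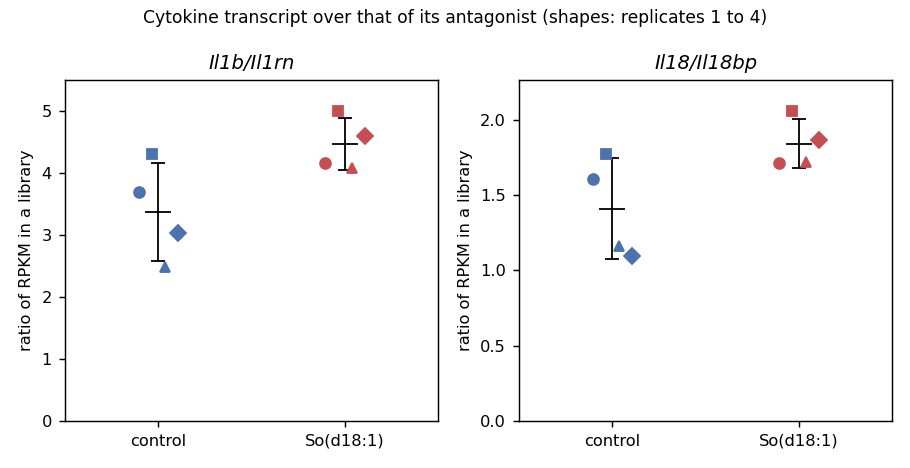
Ratio of the RPKM of a cytokine transcript to that of its antagonist in each library, Il1b over Il1rn and Il18 over Il18bp, with shapes for replicates 1 to 4 and black bars for the mean ± SD. The So(d18:1) libraries lie between 4.09 and 5.00 for the first ratio and between 1.72 and 2.06 for the second, and control replicate 2 lies within both ranges.

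Around Txnip, 15 genes that share its regulation or bind its protein were tested, 2 rose and 0 fell. Arrdc3, another arrestin of the Txnip family, was at 346.2, 367.2, 320.2 and 329.1 CPM in control libraries and at 381.7, 365.7, 406.8 and 411.9 CPM in So(d18:1) libraries. Control replicate 2 lay just above So(d18:1) replicate 2, and the log2 fold change was 0.20 (SE 0.050, adjusted p = 0.0139, edgeR, and 0.0524 without control replicate 4). Ddit4, a stress-induced inhibitor of mTORC1, rose from 10.5, 11.0, 9.82 and 11.0 CPM to 15.4, 17.3, 20.9 and 19.2 CPM. Arrdc4, the arrestin whose regulation by MondoA is most like that of Txnip, averaged 92.7 ± 7.84 CPM with vehicle and 99.6 ± 2.54 CPM with So(d18:1) (SD, n = 4 each, log2 fold change 0.11, adjusted p = 0.244, edgeR). Txn1, the thioredoxin that TXNIP binds, was at 135.9 ± 7.71 and 150.8 ± 14.5 CPM (SD, n = 4 each, log2 fold change 0.15, adjusted p = 0.138, edgeR). The list's median log2 fold change was 0.06, with 11 genes higher and 4 lower.

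Priming was described from 27 genes of the response to lipopolysaccharide, of which 23 were tested, 2 rose and 2 fell. The 4 untested genes were Il6 with 0 to 5 counts per library, Il12b with 0 to 3, Nos2 with 0 to 8 and Cxcl3 with 0 to 10. Each was thus close to 0 in both groups, and Il1b was at 20.1 to 26.4 CPM over all libraries. No library had a stimulus named in its label for comparison, so whether the cells were primed was not tested. Acod1, the enzyme that makes itaconate, had 13.8, 15.4, 14.3 and 12.7 CPM in control libraries and 22.3, 19.2, 23.6 and 20.4 CPM in So(d18:1) libraries, with a log2 fold change of 0.60 (SE 0.085, adjusted p = 7.5e-05, edgeR). The transcription factor Irf1 rose from 94.7 ± 7.35 to 112 ± 6.04 CPM (SD, n = 4 each, log2 fold change 0.24, adjusted p = 0.00693, edgeR). Opposite to these, the chemokine Ccl3 fell from 23.1 ± 3.11 to 15.5 ± 1.16 CPM (SD, n = 4 each, log2 fold change -0.58, adjusted p = 0.000277, edgeR). Marcks, a membrane-bound substrate of protein kinase C, fell from 759.6 ± 20.7 to 658.7 ± 16.3 CPM (SD, n = 4 each, log2 fold change -0.21, adjusted p = 0.00239, edgeR). The list moved in no single direction, with a median log2 fold change of 0.02, 13 genes higher and 10 lower. The 3 HIF subunit genes Hif1a, Epas1 and Arnt gave 0 calls by edgeR, against 8.94% of all tested genes. None had an unadjusted p under 0.05, against 23.4%, so 3 genes are too few to read these counts. All 3 were lower, with a median log2 fold change of -0.06.

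Neutrophils also hold Il1b, Il1rn and Serpinb1a transcripts, and the neutrophil markers moved with treatment. The summed level of 10 neutrophil markers was 1460 to 1861 CPM in control libraries and 1248 to 1359 CPM in So(d18:1) libraries, with 1 marker that rose (Mmp8) and 6 that fell. Ly6g, which defines the cell type, had 19 to 63 counts per library. Their part in the values of Il1b, Il1rn and Serpinb1a was not tested. The summed macrophage markers ran from 32681 to 35269 CPM in control and from 28418 to 33446 CPM in So(d18:1) libraries, with 1 marker rising and 2 falling. Of these 10 markers 9 were lower, with a median log2 fold change of -0.14, and 8 had an unadjusted p under 0.05 (edgeR). The called shares were 70% of the neutrophil and 30% of the macrophage markers, against 8.94% of all tested genes. An unadjusted p under 0.05 was found for 23.4% of all tested genes and for all 10 neutrophil markers. Of the neutrophil markers 9 were lower, with a median log2 fold change of -0.43. Of the 10 lymphocyte markers 4 were tested, and these summed to 22.8 to 29.2 CPM in control and 14.5 to 21.1 CPM in So(d18:1) libraries. All 4 were lower with an unadjusted p under 0.05 (edgeR), with a median log2 fold change of -0.81, and 1 of them passed. Cd3e had 0 to 2 counts per library. None of the 8 dendritic cell or 7 fibroblast markers tested passed by edgeR, with 2 and 1 of them under an unadjusted p of 0.05. Their sums stayed under 32 CPM in each library.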

How the data were processed

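Poly(A) RNA of 8 BMDM libraries, 4 per group, was sequenced by the authors. The submitters' processing notes name Trim Galore 0.6.7, HISAT2 2.2.1 and featureCounts 2.0.1 with the mm10 build. The deposited values are whole-number counts per Ensembl gene, not normalized, with a gene length for each. Strand and multi-mapping settings are not given in the sources used here. The counts of genes that overlap others or share sequence with them are therefore uncertain. Besides Naip5 and Il18bp, such genes include Txnip, Pycard, Il1b, Il1a, Birc3, Irak2 and Irf1. A low count of the overlapping gene does not settle this.

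Symbols and coordinates came from GENCODE M21 (GRCm38, the build called mm10), which matched 52081 of 55357 identifiers. With edgeR 4.0.16 (limma 3.58.1, R 4.3.3), genes were filtered by filterByExpr, scaled by TMM and fitted with robust quasi-likelihood dispersion over all 14514 genes. Standard errors were derived from F, as the size of the log2 fold change over √F, and the 95% interval uses the t distribution. CPM carry the TMM factors, log2 CPM a prior count of 2, and RPKM the deposited gene length. Intervals and tests cover only the spread of 4 libraries per group, where an exact permutation test cannot go below 0.0286. No member's groups held an outlying library by Dixon's test.

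The members and lists were chosen with earlier results of these data known. All members were named, with every pathway gene under an adjusted p of 0.05 (up to 6 per list) and their direct partners where needed. One called gene of the lists is counted and not reported here. The 3 genes nearest in pattern to the member of smallest p were also named. Markers, Arnt, overlapping genes and the untested priming genes are additions to that rule. Alternatives to TMM were library size alone, upper quartile scaling and DESeq2's size factors. Further alternatives were no filter, at least 10 counts in every library, DESeq2 1.42.0, limma-voom, the replicate number as a block, thinning to the smallest library, the study's threshold, and each library left out. For the pathway genes and cytokine ratios they were added after seeing the data. RefSeq promoter windows (GRCm38.p6) were found for 9 of the 10 members. The model and its intervals were run on simulated data, drawn as independent libraries with the same dispersion for every gene. The simulation held no split such as that between the control libraries, so it does not vouch for the intervals under that split. Plots used Python 3.11.15 and matplotlib 3.10.9.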

Additional observations from a re-analysis of the deposited data

How the results depend on the processing

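The number of inflammasome genes that passed was 0 in the reported fit and 2 (Casp1 and Txnip) with no filter on low counts. It was 1 (Txnip) by DESeq2's Wald test and 2 (Casp1 and Txnip) with the replicate block. Of all tested genes, 1298 of 14514 passed in the reported fit and 1723 of 28076 with no filter. DESeq2's Wald test called 1495 of 14514, and the fit with the block 1784 of 14514. With each library left out the number of inflammasome genes ranged from 0 to 2, reaching 1 without control replicate 1 and 2 without control replicate 2. In those 2 fits 1061 of 14823 and 1370 of 14627 tested genes passed. The number of inflammasome genes stayed at 0 under the other scalings, at least 10 counts in every library, limma-voom, thinning and the study's threshold. The count of pathway genes was 18 in the reported fit, 27 with the replicate block and 27 with no filter. It lay between 14 and 20 with each library left out. The count over all tested genes moved too, and with each library left out it lay between 815 and 1370. The study's threshold differs in both the p and the fold it asks for. By it 5 of the 127 tested pathway genes passed (3 higher and 2 lower), against 3.89% of all tested genes. The higher genes were Gsdme, Ddit4 and Acod1, which are among the 18. The lower genes were Il1a (log2 fold change -0.63) and Nlrp12 (-0.81, with 9 to 34 counts per library), which are not. Directions held in 169 of 170 values of the members, except for Aim2, which ran from -0.0051 without control replicate 3 to 0.058 with each library left out. Nek7, at -0.0024, turned to 0.0044 by library size alone and to 0.0017 with no filter, and lay between -0.011 and 0.0083 with each library left out. The cause of these shifts was not tested. Same-numbered libraries deviated together with correlations of -0.0035 to 0.10, so the numbers were not taken to pair the samples, and replicate 2 was the only number whose libraries matched each other best in both directions. The 4 libraries per group limit what can be seen: the median standard error of a member was 0.065 on the log2 scale.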
